A study of Mus musculus with 15 samples.

Results

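The guanylin hormones and their receptor are encoded by 3 genes, Guca2a (guanylin), Guca2b (uroguanylin) and Gucy2c (guanylyl cyclase C), which were taken by name from the 56859 genes of a count table of mouse colon RNA. They were selected on their measured levels in these libraries, so their levels and fold changes are a description and carry no test. The table holds 15 libraries in 5 groups of 3, all of colon from male C57BL/6J mice. The age given for every sample, 6 to 10 weeks, cannot be the age at collection of mice kept to day 100. Age at collection can thus differ between the groups. In the model of colitis-associated colorectal cancer used here, the carcinogen azoxymethane (AOM, 10 mg/kg) was injected on day 0. Dextran sulfate sodium (DSS, 2.5% in drinking water), which injures the colonic epithelium, followed on days 7 to 11, 28 to 32 and 49 to 53. The APX3330 group received AOM, DSS and 25 mg/kg APX3330 on the DSS days. APX3330, named E3330 in the titles, inhibits the redox function of APE1/Ref-1. The saline D27, saline D48 and saline D100 groups received AOM, DSS and injections of saline in place of APX3330, and the days come from the sample descriptions. If these days count from AOM, day 27 falls before the DSS of days 28 to 32. Day 48 then falls before that of days 49 to 53, and day 100 after all 3 courses. A difference between saline days can thus hold a difference in the number of DSS courses. For the Control group the label says wild type and names no agent, yet the protocol common to all samples states AOM for every mouse, so the treatment of Control is not settled here. The labels of the APX3330 group carry no day, and a difference from a saline group can hold a difference in day and in DSS courses. The titles call the D48 group cycle1 and the D100 group cycle2. Whether each library is from its own animal is not stated in the labels, and SDs and p-values here measure the spread between these libraries.

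Guanylin and uroguanylin are small secreted peptides that bind guanylyl cyclase C on the luminal membrane of intestinal epithelial cells and raise cyclic GMP (cGMP) in them. Through the cGMP-dependent kinase encoded by Prkg2, this opens the chloride channel Cftr and restrains the sodium-proton exchanger Slc9a3, which moves salt and water into the gut lumen. Bacterial heat-stable enterotoxins act on the same receptor. Guanylin is made mainly in the colon and distal small intestine and uroguanylin mainly in the proximal small intestine, and loss of guanylin transcript is a common feature of human colorectal tumours.

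Guca2a (ENSMUSG00000023247.2) lies on the plus strand of chromosome 4 at 119637704 to 119639471, and Guca2b (ENSMUSG00000032978.14) on the minus strand of the same chromosome at 119656607 to 119658954, in GENCODE M21 on GRCm38. The hormone genes point toward each other, 17135 bases apart, with 0 annotated genes between them. Gucy2c (ENSMUSG00000042638.14) lies on the minus strand of chromosome 6 at 136697284 to 136781765. No other annotated gene overlaps any of the 3. The stretches just upstream of the annotated starts of the hormone genes are shown because these neighbouring genes had similar profiles over the libraries. They are RefSeq promoter sequences on GRCm38.p6, written 5′ to 3′ on the strand of each gene, with matches to the motif AGATAA of GATA transcription factors, or to its reverse complement, in capitals. The Guca2a sequence covers chr4:119637482-119637703 on the plus strand and the Guca2b sequence chr4:119658955-119659195 on the minus strand. Gucy2c is named only.
Guca2a upstream: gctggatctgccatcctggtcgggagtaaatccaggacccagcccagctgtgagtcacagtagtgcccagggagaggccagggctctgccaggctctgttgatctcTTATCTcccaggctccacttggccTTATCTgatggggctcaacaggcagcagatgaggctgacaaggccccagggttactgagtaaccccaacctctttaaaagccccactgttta
Guca2b upstream: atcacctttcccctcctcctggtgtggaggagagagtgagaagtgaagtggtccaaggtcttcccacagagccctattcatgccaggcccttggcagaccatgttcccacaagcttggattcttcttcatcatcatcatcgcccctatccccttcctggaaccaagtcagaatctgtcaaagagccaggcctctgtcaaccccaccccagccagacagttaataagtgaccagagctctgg

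The motifs were chosen after these sequences had been seen and were searched on both strands. The Guca2a stretch of 222 bases held 2 matches to the GATA motif, at positions -116 to -111 and -92 to -87 from the annotated start, both on the minus strand. The Guca2b stretch of 241 bases had none. Of 32851 mouse promoters in the same table, 9.10% held the GATA motif in a window of the first length and 9.77% in one of the second. Neither stretch held the CDX motif TTTAT, found in 33.7% and 36.7% of promoters at the 2 window lengths, nor the letters TATAA, found in 19.5% and 22.4%. A match to these letters is a description of the sequence and not a binding site.

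Total counts per library ranged from 13548661 to 17919613, and 18038 genes had enough counts to test. Levels are given in CPM, which is counts scaled to a common library size with TMM factors that adjust for composition. Saline D48 replicates 2 and 3 held exocrine pancreas transcripts, with 26439 and 6450.0 CPM summed over 5 pancreas markers against at most 7.09 in the other 13 libraries. Control replicates 1 and 3 and saline D100 replicate 1 held squamous epithelium transcripts, with 873, 409 and 829.8 CPM over 6 markers against at most 96.1 elsewhere. Skeletal muscle markers summed to 1293 and 572 CPM in Control replicates 1 and 3, against at most 19.8 in the other 13 libraries. Without the pancreatic libraries saline D48 has 1 library, and without the squamous libraries Control has 1. A p given for such a fit takes the spread of that group from the other groups. In keeping with the tissue label, 8 markers of colonic epithelium summed to 9872 ± 1072 CPM in APX3330, 10869 ± 759.7 in saline D27, 10650 ± 1187 at saline D48, 10148 ± 501 at saline D100 and 11439 ± 285 in Control (SD, n = 3 libraries, as for every mean below). Over 6 markers of small intestinal enterocytes, where uroguanylin is abundant, the sum was between 2.06 and 9.85 CPM in every library, and Apoa4 had no count in any.

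Guca2a, the guanylin gene, was higher in the saline D27 and D100 groups than in Control, with less separation at D48. It stood at 189.8, 157 and 218 CPM in APX3330 replicates 1 to 3. The saline libraries held 265, 318 and 254 CPM at D27, 241, 141 and 178 CPM at D48 and 234, 369.9 and 368 CPM at D100. The Control libraries held 112, 128 and 144 CPM. All libraries of APX3330, saline D27 and saline D100 lay above all Control libraries, while saline D48 replicate 2 lay within the Control range. Over all genes tested the values of 2 groups did not overlap for 32.4% (APX3330 against Control), 38.2% (saline D27 against Control), 42.5% (saline D48 against Control) and 39.9% (saline D100 against Control).

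Group means of Guca2a were 188 ± 30.4 CPM in APX3330, 279 ± 34.0 in saline D27, 187 ± 50.5 at saline D48, 324 ± 78.1 at saline D100 and 128 ± 16.2 in Control. The order from high to low was saline D100, saline D27, APX3330, saline D48 and Control. Neighbours in this order overlapped except saline D27 and APX3330, which did not, as for 29.3% of all genes. The fitted log2 fold change against Control was 1.12 ± 0.201 (SE, as for every fold below) for saline D27, 0.54 ± 0.1996 for saline D48, 1.34 ± 0.202 for saline D100 and 0.56 ± 0.1997 for APX3330. These 4 comparisons share the Control libraries. Saline D48 replicate 1, at 241 CPM, was the library of its group without pancreatic transcripts, and without the other two the log2 fold change of saline D48 against Control was 0.91, a value of a group of 1 library. Without saline D48 replicate 1 it was 0.32.

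**Figure D1:**
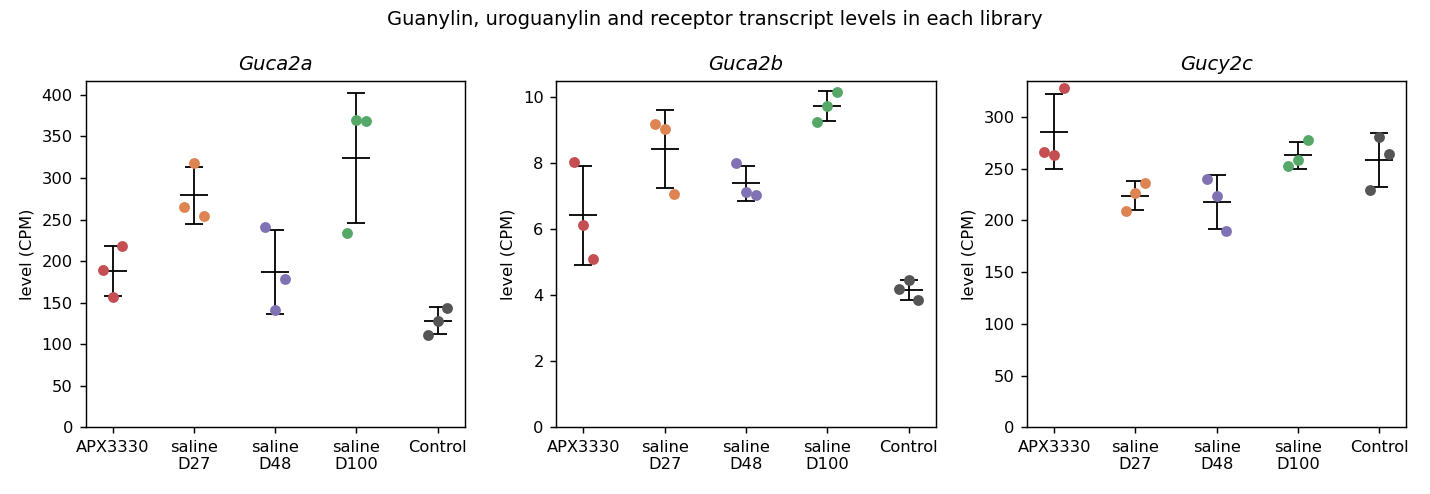
Transcript level (CPM with TMM factors) of Guca2a, Guca2b and Gucy2c in each library of the 5 groups, with points for the 3 libraries, a horizontal line for the mean and whiskers for the SD. All 3 Control libraries of Guca2b sit between 3.86 and 4.46 CPM, below every other library, while the Gucy2c points of Control lie among those of the other groups. Over all genes tested, 32.4% to 42.5% did not overlap between Control and another group.

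Guca2b, the uroguanylin gene, was far less abundant and was lowest in Control. Its level was 8.04, 6.13 and 5.09 CPM in the APX3330 libraries. It was 9.20, 9.02 and 7.07 CPM at saline D27, 8.01, 7.13 and 7.03 CPM at saline D48 and 9.26, 9.74 and 10.2 CPM at saline D100. The Control libraries held 4.18, 4.46 and 3.86 CPM, and none of them overlapped with any library of the other 4 groups. Of all genes, 32.4% (APX3330), 38.2% (saline D27), 42.5% (saline D48) and 39.9% (saline D100) did not overlap with Control. Guca2b levels rest on 58 to 165 counts per library, so counting error is a larger part of the spread than for Guca2a, with 1736 to 5770 counts.

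Uroguanylin means were 6.42 ± 1.49 CPM in APX3330, 8.43 ± 1.18 in saline D27, 7.39 ± 0.538 at saline D48, 9.72 ± 0.452 at saline D100 and 4.17 ± 0.297 in Control. From high to low the groups stood as saline D100, saline D27, saline D48, APX3330 and Control. Saline D100 did not overlap with saline D27, nor APX3330 with Control, while the other neighbours overlapped. Of all genes 25.9% did not overlap for saline D100 against saline D27 and 32.4% for APX3330 against Control. The lowest saline D100 library held 9.26 CPM and the highest saline D27 library 9.20 CPM. Log2 fold changes against Control were 1.02 ± 0.197 for saline D27, 0.83 ± 0.197 for saline D48, 1.22 ± 0.197 for saline D100 and 0.62 ± 0.198 for APX3330. With each library left out in turn, the APX3330 value lay between 0.43 (without APX3330 replicate 1) and 0.77 (without APX3330 replicate 3).

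Gucy2c, the receptor gene, varied little between the groups. The APX3330 libraries held 266, 264 and 328 CPM. In the saline libraries it was at 209, 227 and 236 CPM at D27, 240.4, 224 and 189 CPM at D48 and 252, 259 and 278 CPM at D100. The Control libraries held 229.6, 281 and 264 CPM and overlapped with every other group. Saline D27 and saline D48 were the groups that did not overlap with APX3330, as for 29.3% and 34.1% of all genes.

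Receptor means were 286 ± 36.3 CPM in APX3330, 224 ± 13.7 in saline D27, 218 ± 26.0 at saline D48, 263 ± 13.1 at saline D100 and 258 ± 26 in Control. In the order APX3330, saline D100, Control, saline D27 and saline D48, every neighbour overlapped with the next. Log2 fold changes against Control were -0.20 ± 0.114 for saline D27, -0.24 ± 0.114 for saline D48, 0.03 ± 0.114 for saline D100 and 0.15 ± 0.114 for APX3330. The saline D100 value changed sign in 3 of 13 alternatives, as at -0.05 without Control replicate 1, so no direction is given for it. The APX3330 value was 0.04 without APX3330 replicate 3. Without the squamous libraries the value was 0.04 for APX3330 and -0.31, -0.35 and -0.05 for the saline groups at D27, D48 and D100. The saline D48 value was -0.10 without the pancreatic libraries and -0.15 without saline D48 replicate 3. Relative to the epithelium markers described below, it was 0.36 for APX3330 and -0.13, -0.14 and 0.20 for those saline groups. The SD of log2 CPM over the 15 libraries was 0.193 for Gucy2c, 0.544 for Guca2a and 0.458 for Guca2b. Of all genes tested 21.7%, 71.3% and 64.5% had a smaller one.

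APX3330 libraries had less hormone transcript and more receptor transcript than the saline D27 libraries. For APX3330 against saline D27 the log2 fold changes were -0.57 ± 0.199 for Guca2a, -0.39 ± 0.192 for Guca2b and 0.35 ± 0.114 for Gucy2c. The Guca2a and Gucy2c values of these groups did not overlap, as for 29.3% of all genes, and those of Guca2b did. The Guca2b value was -0.25 without APX3330 replicate 3 and -0.59 without APX3330 replicate 1. Against saline D48 the values were 0.01 ± 0.199, -0.20 ± 0.193 and 0.39 ± 0.114. Gucy2c again did not overlap, as for 34.1% of all genes. Guca2a had no stable direction here: its value was -0.36 without the saline D48 libraries holding pancreatic transcripts and 0.24 without saline D48 replicate 1. The Guca2b value lay between -0.395 (without APX3330 replicate 1) and -0.06 (without APX3330 replicate 3). Without the pancreatic libraries the Guca2b value was -0.32 and the Gucy2c value 0.25.

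Against saline D100 the hormone genes were lower in APX3330, at -0.78 ± 0.199 for Guca2a and -0.60 ± 0.192 for Guca2b, with neither overlapping between the groups, as for 17.0% of all genes. Gucy2c was at 0.12 ± 0.114 in that comparison, or 0.01 without APX3330 replicate 3, and overlapped. The range of the Guca2a value with each library left out was -0.97 (without saline D100 replicate 1) to -0.67 (without APX3330 replicate 2). The 3 comparisons share the APX3330 libraries, and the saline days differ from a day that is not known for APX3330.

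Between the saline days Guca2a was lower at D48 than at D27 and D100. The log2 fold change of saline D48 against saline D27 was -0.58 ± 0.199 for Guca2a, without overlap, as for 20.1% of all genes, and -0.19 ± 0.191 for Guca2b. Without the pancreatic libraries, which leaves saline D48 replicate 1, they were -0.21 and -0.07. The Guca2b value was -0.30 without saline D27 replicate 3 and -0.12 without saline D27 replicate 1. Saline D100 against saline D48 gave 0.80 ± 0.199 for Guca2a and 0.396 ± 0.191 for Guca2b, and Guca2b values did not overlap, as for 32.6% of all genes, while those of Guca2a did. Without the pancreatic libraries the values were 0.43 and 0.28. Saline D100 against saline D27 gave 0.22 ± 0.198 and 0.20 ± 0.190, where the Guca2b values did not overlap, as for 25.9% of all genes. With each library left out, the Guca2a value ran from 0.11 (without saline D100 replicate 3) to 0.40 (without saline D100 replicate 1, which held squamous transcripts) and the Guca2b value from 0.09 (without saline D27 replicate 3) to 0.27 (without saline D27 replicate 1). Gucy2c stood at -0.04 ± 0.114, 0.27 ± 0.114 and 0.23 ± 0.114 for D48 against D27, D100 against D48 and D100 against D27. Its value for D48 against D27 changed sign in 3 of 13 alternatives, as at 0.10 without the pancreatic libraries. Its value for D100 against D48 was 0.13 without them and 0.17 without saline D48 replicate 3. Its saline D100 values did not overlap with those of either other saline day.

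**Figure D2:**
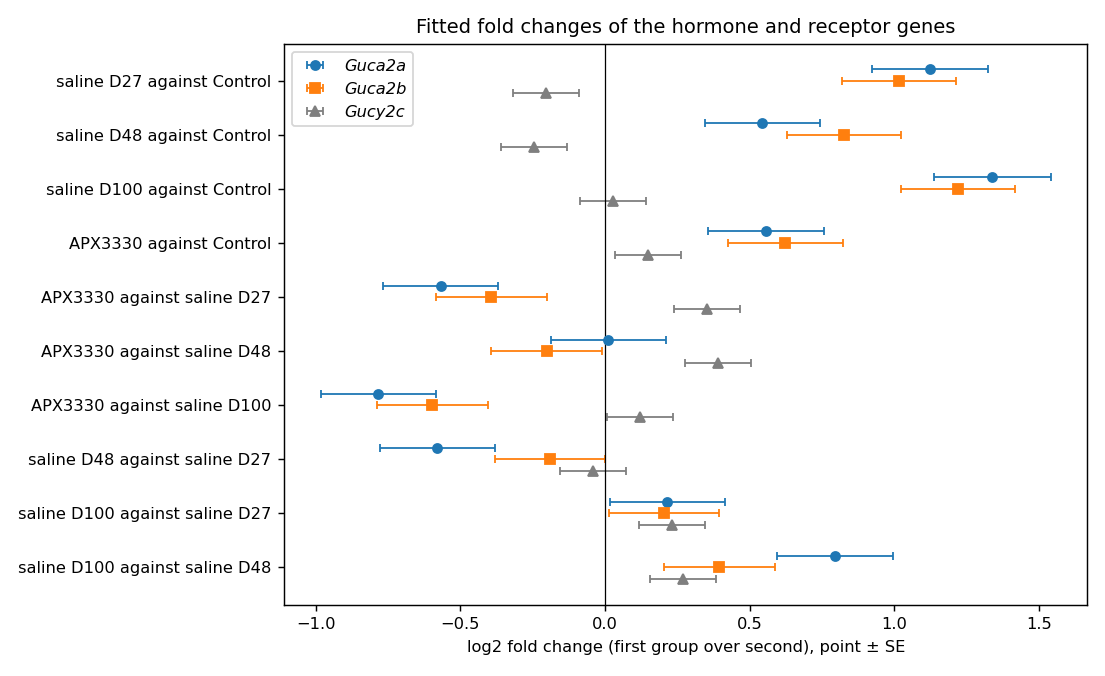
Fitted log2 fold changes (horizontal axis, first group over second) with SE as whiskers, for the 3 genes in 10 pairwise comparisons that share libraries. Guca2a and Guca2b lie to the right of 0 in the 4 comparisons with Control, up to 1.34 and 1.22 for saline D100, while Gucy2c lies between -0.24 and 0.15 there.

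Per kilobase of exon, guanylin transcript was the most abundant of the 3 in every group. Guca2a stood at 317 ± 51.2 CPM per kb in APX3330, 469.9 ± 57.2 in saline D27, 314 ± 85.0 at saline D48, 545 ± 131 at saline D100 and 216 ± 27.3 in Control. On this scale Gucy2c was at 72.2 ± 9.17, 56.6 ± 3.46, 55.1 ± 6.56, 66.4 ± 3.30 and 65.2 ± 6.57 in the same groups. Guca2b was at 7.38 ± 1.72, 9.69 ± 1.36, 8.49 ± 0.618, 11.2 ± 0.520 and 4.79 ± 0.342. The exon lengths behind these values were 594 bases for Guca2a, 870 for Guca2b and 3959 for Gucy2c, as unions over annotated transcripts.

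The balance between the hormones differed little between groups, while the balance of hormone to receptor differed between groups. There were 30.7 ± 10.5 Guca2a counts per Guca2b count in APX3330, 33.3 ± 3.91 in saline D27, 25.1 ± 5.17 at saline D48, 33.2 ± 6.89 at saline D100 and 30.9 ± 5.62 in Control, and the ranges of the other 4 groups all overlapped with that of Control. Guca2a counts per Gucy2c count were 0.658 ± 0.0590 in APX3330, 1.25 ± 0.164 in saline D27, 0.857 ± 0.200 at saline D48, 1.23 ± 0.265 at saline D100 and 0.496 ± 0.0447 in Control. The Control libraries, at 0.457 to 0.545, lay below all others, of which the lowest was an APX3330 library at 0.595. Guca2b counts per 100 Gucy2c counts were 2.30 ± 0.733, 3.79 ± 0.721, 3.41 ± 0.271 and 3.70 ± 0.0580 in APX3330, saline D27, saline D48 and saline D100 and 1.62 ± 0.183 in Control, where APX3330 overlapped with Control.

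Markers of the cells that make these peptides moved differently from each other. Goblet cells and surface colonocytes both express guanylin in the colon. The summed level of 7 goblet cell markers was 63468 ± 15415 CPM in APX3330, 56894 ± 6595 in saline D27, 38684.5 ± 11583 at saline D48, 71496 ± 12559 at saline D100 and 10276 ± 484 in Control. Over 8 surface colonocyte markers the sum was 8459 ± 1545, 11777 ± 465, 10869 ± 779.7 and 8802 ± 440.2 CPM in APX3330, saline D27, saline D48 and saline D100 and 13254 ± 1188 CPM in Control. In bulk tissue fewer cells of a type and less RNA per cell cannot be told apart.

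Guca2a per 100 counts of epithelium markers was 1.91 ± 0.290 in APX3330, 2.56 ± 0.191 in saline D27, 1.76 ± 0.424 at saline D48, 3.21 ± 0.866 at saline D100 and 1.12 ± 0.132 in Control. All Control libraries lay below all others on this scale, at 1.00 to 1.26. Per 100 counts of goblet markers Control was the highest group, with 0.315 ± 0.127, 0.490 ± 0.00954, 0.520 ± 0.207 and 0.450 ± 0.0457 in APX3330, saline D27, saline D48 and saline D100 and 1.25 ± 0.217 in Control. Per 100 counts of colonocyte markers Guca2a was 2.27 ± 0.488, 2.37 ± 0.323, 1.70 ± 0.346 and 3.69 ± 0.922 in those groups and 0.965 ± 0.0570 in Control. For Guca2b Control was likewise lowest on one scale and highest on the other: 0.667 ± 0.227, 0.773 ± 0.0622, 0.697 ± 0.0546 and 0.9595 ± 0.0695 per 1000 counts of epithelium markers against 0.364 ± 0.0228 in Control. Per 1000 counts of goblet markers it was 0.102 ± 0.00719, 0.148 ± 0.0155, 0.203 ± 0.0600 and 0.138 ± 0.0195 against 0.406 ± 0.0248 in Control. Most of the goblet sum came from the mucus proteins Clca1, Fcgbp and Muc2, as at 26527 ± 3644, 22621 ± 3524 and 18782 ± 5533 CPM in saline D100, against 2281 ± 352, 3646 ± 53.5 and 2462 ± 177 CPM in Control. Of the other goblet markers Zg16 and Tff3 differed less, and values of Agr2 and Spink4 are not given here. The lectin Zg16 was at 1288 ± 186, 1655 ± 301, 1991 ± 41.2 and 1343 ± 432 CPM in APX3330, saline D27, saline D48 and saline D100 and at 1127 ± 82.6 CPM in Control. The trefoil factor Tff3 was at 300.5 ± 60.1, 474 ± 103, 568 ± 49.5 and 294 ± 81.8 CPM in these groups and 259 ± 20.3 CPM in Control. The ratio to the goblet sum is thus mainly a ratio to the first 3 of these genes, and the part of goblet cell content in the hormone levels was not tested.

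**Figure D3:**
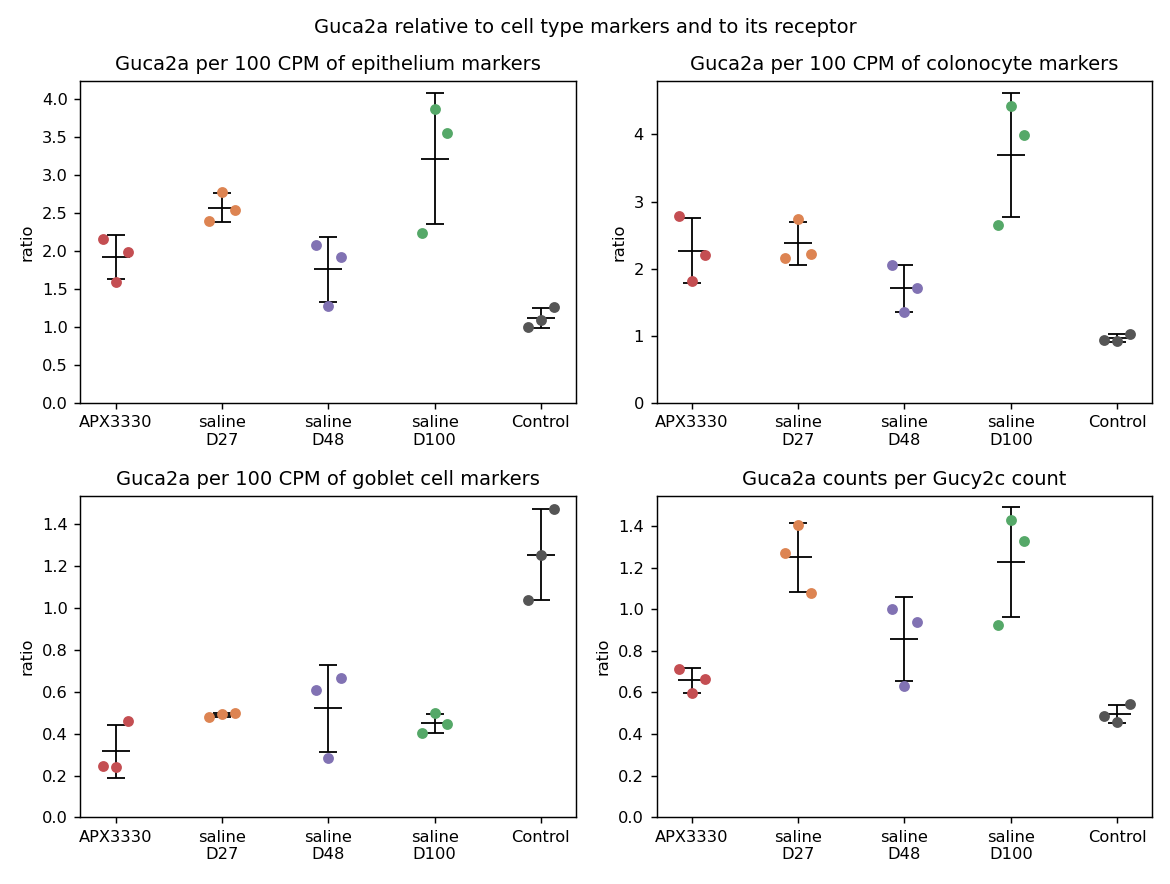
Guca2a relative to the summed level of epithelium, colonocyte and goblet cell markers and relative to Gucy2c counts (vertical axes, ratios), for each library (points) with the mean (horizontal line) and SD (whiskers) of each group of 3. Control is lowest in the panels for epithelium (1.12), colonocytes (0.965) and Gucy2c (0.496) and highest in the goblet panel (1.25).

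Posterior Hox genes and markers of other cell types also differed between the groups. Posterior Hox genes, whose level follows position along the gut, summed to 445 ± 28.6 CPM in APX3330, 447 ± 25.6 in saline D27, 478 ± 59.9 at saline D48, 330.0 ± 73.6 at saline D100 and 758 ± 43.3 in Control, over 6 genes. Anterior Hox genes summed to 29.8 ± 7.52, 28.9 ± 1.42, 27.7 ± 1.79 and 35.01 ± 10.8 CPM in APX3330, saline D27, saline D48 and saline D100 and 28.3 ± 2.54 CPM in Control, over 6 genes, and each of the 4 groups overlapped with Control. Leukocyte markers summed to 3487 ± 866, 5779 ± 1712, 8090.0 ± 1650 and 5934 ± 1130 CPM in APX3330, saline D27, saline D48 and saline D100 and 1414 ± 212 CPM in Control, over 6 genes, and most of each sum was Igha, a plasma cell product. Igha alone was at 3106 ± 797, 5191 ± 1644, 7237 ± 1625 and 5445 ± 1108 CPM in these groups and 1178 ± 183 CPM in Control. Smooth muscle markers summed to 4968 ± 732, 8026 ± 1234, 5196 ± 433 and 5696 ± 784 CPM in these groups and 9686 ± 125 CPM in Control, over 6 genes. The part of position or of these cells in the levels of Guca2a, Guca2b and Gucy2c was not tested.

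Profiles were log2 CPM values centred on each gene's mean over the 15 libraries. The 6 genes nearest to each gene were those at the smallest root mean square distance between profiles. The search covered 11657 other genes whose mean level reached 5 CPM. Genes with predicted, clone or Riken names and segments of immunoglobulins and T cell receptors were left out of it. Nearest to Guca2a were Cyp4f14 (distance 0.254), a fatty acid hydroxylase, Hsd3b3 (0.265), a steroid dehydrogenase, Tbc1d4 (0.286), a regulator of Rab GTPases, the membrane mucin Muc3a (0.294), the vesicular nucleotide transporter Slc17a9 (0.295) and the decapping enzyme Dcp2 (0.295). Guca2b ranked 9 in the distances from Guca2a, at 0.301 where the median gene was at 0.575. Nearest to Guca2b were Rab27a (0.172), a GTPase of secretory vesicles, the phospholipase Plaat3 (0.172), the signal peptidase subunit Sec11c (0.181), Sil1 (0.184), which serves an endoplasmic reticulum chaperone, the torsin Tor3a (0.188) and the protease Bace2 (0.189). Guca2a ranked 191 from Guca2b. Nearest to Gucy2c were the myosin Myo6 (0.0799), the adaptor subunit Ap3b1 (0.0844), Opa1 (0.0873) of mitochondrial fusion, the tricellular junction protein Marveld2 (0.0912), the epithelial transcription factor Ehf (0.0914) and the protein kinase A subunit Prkar2a (0.0937). From Gucy2c, Guca2a ranked 10419 and Guca2b 10260. A gene that varies little is near many others by this measure, and the points share libraries and groups.

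**Figure D4:**
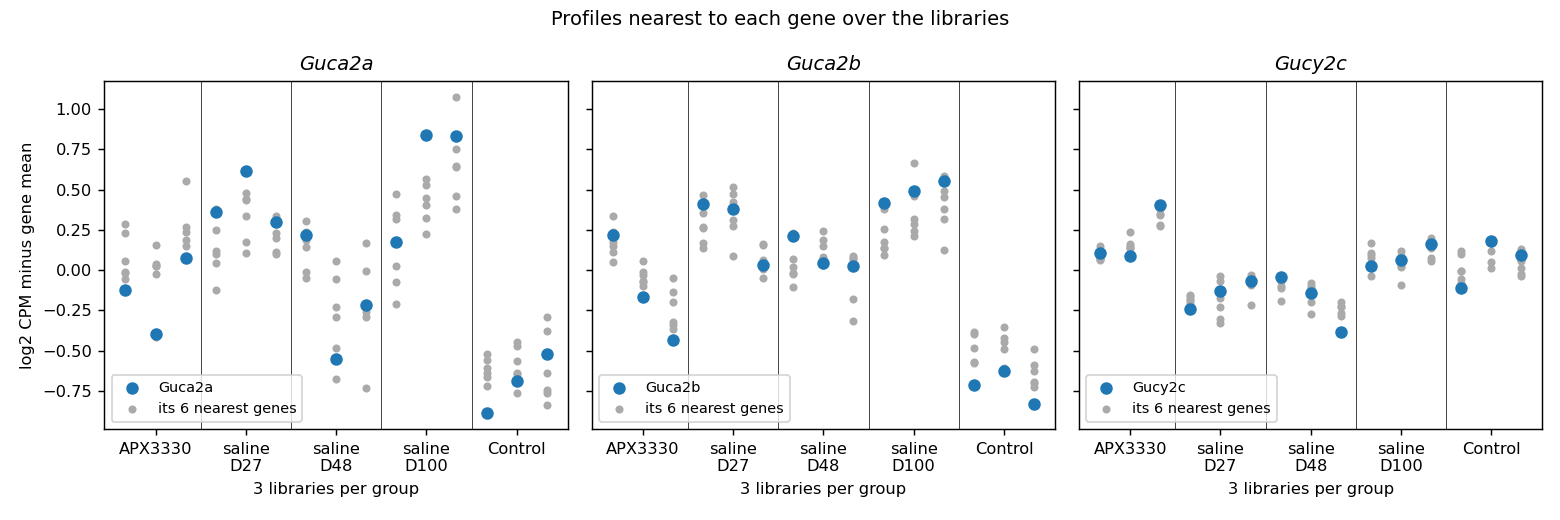
Log2 CPM minus the gene's mean in each of 15 libraries (3 per group, in no order within a group) for each gene of the trio (blue) and its 6 nearest genes (grey). By group mean the hormone genes and their neighbours, which were chosen for a like profile, are lowest in Control. Gucy2c runs from -0.387 (saline D48 replicate 3) to 0.404 (APX3330 replicate 3), and its neighbours lie at distances of 0.0799 to 0.0937 from its profile.

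Other genes of the pathway were described from 3 lists: cGMP effectors with the transport proteins they act on, enzymes that make or break down cGMP, and transcription factors of intestinal differentiation. The lists were chosen with earlier results of these data known, so counts of calls over them are a description. Of 48 genes 41 had enough counts to test. By edgeR's quasi-likelihood test at an adjusted p below 0.05, 6 rose and 7 fell in saline D27 against Control, where 10.2% of all genes rose and 9.36% fell. In saline D48 against Control 6 rose and 11 fell (14.3% and 13.0% of all genes), in saline D100 against Control 8 rose and 6 fell (11.4% and 10.5%), and in APX3330 against Control 8 rose and 5 fell (7.16% and 8.18%). In APX3330 against saline D27 4 rose (4.71% of all genes) and none fell (4.37%), and in APX3330 against saline D48 6 rose and 4 fell (9.41% and 10.3%). None was called in APX3330 against saline D100, where 0.305% of all genes rose and 0.200% fell, with 6 at an unadjusted p below 0.05 and 0 called by DESeq2. For APX3330 against saline D27, where none of the 4 called fell, 11 had an unadjusted p below 0.05 and DESeq2 called 10, with 8 higher and 2 lower. The median log2 fold change of the 41 lay between -0.13 (saline D48 against Control) and 0.19 (APX3330 against saline D48), and that of all genes between -0.01 and 0.02 in the same 7 comparisons. With 1 library left out, the 13 calls of saline D27 against Control became 7 without saline D27 replicate 2 or Control replicate 2 and 8 without Control replicate 1, and the 17 of saline D48 against Control became 11 without Control replicate 2. The 4 of APX3330 against saline D27 became 2 without APX3330 replicate 2, saline D27 replicate 1 or saline D27 replicate 2, and 8 without APX3330 replicate 1 or saline D27 replicate 3. When the squamous libraries were left out, so that Control had 1 library, 4 pathway genes were called for APX3330 against Control, and 5, 7 and 6 for the D27, D48 and D100 saline groups. Without those holding pancreatic transcripts 6 were called in saline D48 against Control and 1 in APX3330 against saline D48.

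Among the effectors, 18 of 19 were tested. Against Control, 4 rose and 5 fell in APX3330, while in the saline groups 1 rose and 2 fell at D27, 1 rose and 8 fell at D48 and 3 rose and 3 fell at D100. Of all genes 7.16% rose and 8.18% fell in APX3330. The shares that rose and fell were 10.2% and 9.36% at D27, 14.3% and 13.0% at D48 and 11.4% and 10.5% at D100. The sodium-proton exchanger Slc9a3 differed widely between the libraries. It stood at 169, 262 and 618 CPM in APX3330, at 179, 344 and 147 CPM in saline D27, at 92.5, 72.6 and 57.8 CPM in saline D48, at 393, 318 and 518 CPM in saline D100 and at 78.7, 102 and 87.7 CPM in Control. All APX3330, saline D27 and saline D100 libraries lay above all Control libraries, and saline D48 overlapped with Control. Of all genes, 32.4% (APX3330), 38.2% (saline D27) and 39.9% (saline D100) did not overlap with Control. Slc9a3 rose against Control in saline D27 by log2 1.32 ± 0.389 (edgeR adjusted p = 0.0272), in saline D100 by 2.20 ± 0.399 (edgeR adjusted p = 0.00120) and in APX3330 by 1.97 ± 0.396 (edgeR adjusted p = 0.00390). It also rose in APX3330 against saline D48, by 2.23 ± 0.3998 (edgeR adjusted p = 0.00166). The saline D27 call was lost without saline D27 replicate 2 (log2 0.87, edgeR adjusted p = 0.170) and without Control replicate 1, 2 or 3 (edgeR adjusted p = 0.0912, 0.0515 and 0.0778). Without the libraries holding squamous transcripts the values against Control were 1.15, 2.06 and 1.79 in saline D27, saline D100 and APX3330 (edgeR adjusted p = 0.335, 0.106 and 0.186). Without those holding pancreatic transcripts the value of APX3330 against saline D48 was 1.92 (edgeR adjusted p = 0.0857). The values of Slc9a3 were 74.3 ± 17.4 CPM in saline D48, where Guca2a was also lowest among the saline days, and 410.0 ± 101 CPM in saline D100.

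The chloride channel Cftr averaged 174 ± 36.5 CPM in APX3330, 90.4 ± 16.8 in saline D27, 78.9 ± 15.6 at saline D48, 136 ± 18.8 at saline D100 and 111 ± 9.95 in Control. It rose in APX3330 against saline D27 by log2 0.94 ± 0.174 (edgeR adjusted p = 0.00835) and against saline D48 by 1.14 ± 0.175 (edgeR adjusted p = 0.000695). Its rise in APX3330 against Control, 0.65 ± 0.173 (edgeR adjusted p = 0.0201), was lost without APX3330 replicate 3 (0.48, edgeR adjusted p = 0.0941), Control replicate 1 (0.61, edgeR adjusted p = 0.0738) or Control replicate 3 (0.61, edgeR adjusted p = 0.0701). Without the libraries holding squamous transcripts it was 0.52 (edgeR adjusted p = 0.352). The fall of Cftr in saline D48 against Control, -0.49 ± 0.174 (edgeR adjusted p = 0.0474), was lost without saline D48 replicate 2 or 3 or any 1 Control library, with edgeR adjusted p between 0.0725 and 0.183, and without the pancreatic libraries (-0.20, edgeR adjusted p = 0.657) or the squamous ones (-0.62, edgeR adjusted p = 0.143). Kcne3, a potassium channel subunit that aids chloride secretion, averaged 214 ± 23.1 CPM in APX3330, 156 ± 9.73 in saline D27, 129 ± 21.4 at saline D48, 173 ± 8.28 at saline D100 and 141 ± 12.7 in Control. It rose in APX3330 against saline D48 (0.73 ± 0.118) and against Control (0.60 ± 0.118), with edgeR adjusted p of 0.000929 and 0.00334. The second was 0.49 (edgeR adjusted p = 0.204) without the squamous libraries. Its rise in APX3330 against saline D27 (0.46 ± 0.118, edgeR adjusted p = 0.0271) was lost without APX3330 replicate 2, saline D27 replicate 1 or saline D27 replicate 2 (0.37, 0.45 and 0.42, edgeR adjusted p = 0.113, 0.0864 and 0.103). In APX3330 against saline D48 without the pancreatic libraries the Cftr value was 0.85 (edgeR adjusted p = 0.0533).

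Transporters of chloride and bicarbonate, Slc26a3 and Slc4a4, fell against Control in all 4 groups. Slc26a3, the chloride-bicarbonate exchanger of surface colonocytes, averaged 634 ± 295 CPM in APX3330, 563 ± 47.8 in saline D27, 381 ± 115 at saline D48, 530.3 ± 44.5 at saline D100 and 1329 ± 236 in Control. Its log2 fold changes against Control were -1.07 ± 0.281, -1.24 ± 0.282, -1.80 ± 0.287 and -1.33 ± 0.283 in these groups, with edgeR adjusted p of 0.0187, 0.00697, 0.000400 and 0.00366. The APX3330 call was lost without Control replicate 2 (-0.92, edgeR adjusted p = 0.0644). Without the squamous libraries the saline D27 and APX3330 values were -1.48 and -1.32 (edgeR adjusted p = 0.0647 and 0.110). Slc4a4, the basolateral sodium bicarbonate cotransporter, averaged 101 ± 32.6, 85.7 ± 9.79, 103 ± 14.2 and 67.5 ± 13.4 CPM in these groups and 219 ± 24.2 CPM in Control. It fell by log2 1.12 ± 0.199, 1.36 ± 0.200, 1.09 ± 0.199 and 1.70 ± 0.203, with edgeR adjusted p of at most 0.00179. Without the squamous libraries the saline D48 and APX3330 values of Slc4a4 were -0.99 and -1.02 (edgeR adjusted p = 0.0528 and 0.0832).

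Prkg2, the kinase that links cGMP to Cftr and Slc9a3, had few counts. It had 8, 11 and 6 counts in the APX3330 libraries, 27, 13 and 9 at saline D27, 12, 79 and 50 at saline D48, 14, 33 and 58 at saline D100 and 8, 5 and 12 in Control. It rose in saline D48 against Control by log2 2.39 ± 0.668 (edgeR adjusted p = 0.0148). The value was 0.49 (edgeR adjusted p = 0.781) without the libraries holding pancreatic transcripts, and the call was lost without saline D48 replicate 2, Control replicate 1 or Control replicate 2 (edgeR adjusted p = 0.0870, 0.0516 and 0.0556). The rise in saline D100 against Control, 2.13 ± 0.671 (edgeR adjusted p = 0.0333), was lost without saline D100 replicate 3 (1.45, edgeR adjusted p = 0.179) or replicate 2 (edgeR adjusted p = 0.0547) and without any 1 Control library (edgeR adjusted p between 0.0523 and 0.101). Without the squamous libraries the Prkg2 values of saline D48 and saline D100 against Control were 3.01 and 3.13 (edgeR adjusted p = 0.104 and 0.123). In APX3330 against saline D48 Prkg2 fell by log2 2.40 ± 0.668 (edgeR adjusted p = 0.0205), where the value was -0.50 (edgeR adjusted p = 0.796) without the pancreatic libraries. That call was also lost without saline D48 replicate 2 (-1.74, edgeR adjusted p = 0.102), APX3330 replicate 1 (0.0522) or APX3330 replicate 3 (0.0714).

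**Figure D5:**
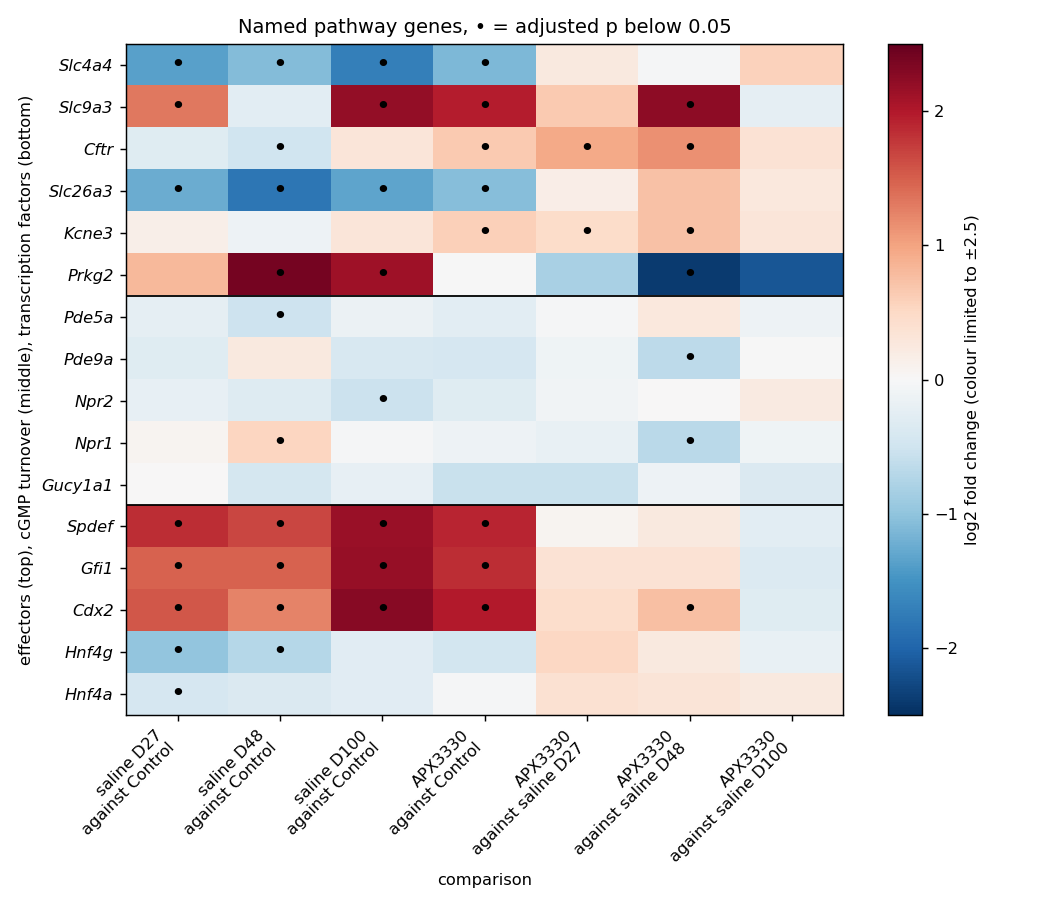
Log2 fold change (colour, first group over second) of the named effectors, cGMP enzymes and transcription factors (rows) in 7 comparisons (columns), with a dot where edgeR's adjusted p was below 0.05. Spdef, Gfi1 and Cdx2 are red with a dot in the 4 comparisons with Control, Slc26a3 and Slc4a4 blue with a dot in the same 4, and the column of APX3330 against saline D100 has no dot.

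Of the enzymes that make or break down cGMP 11 of 17 were tested, and at most 1 rose and 2 fell in any of the 7 comparisons. Over all genes, 0.305% to 14.3% rose and 0.200% to 13.0% fell in these comparisons. Pde5a, the cGMP phosphodiesterase inhibited by sildenafil, fell in saline D48 against Control (-0.52 ± 0.0972, edgeR adjusted p = 0.00120). Its value was -0.41 (edgeR adjusted p = 0.0837) without the pancreatic libraries and -0.51 (edgeR adjusted p = 0.0624) without the squamous ones. Npr2, a natriuretic peptide receptor with cyclase activity, fell in saline D100 against Control (-0.53 ± 0.125, edgeR adjusted p = 0.00691), with -0.40 (edgeR adjusted p = 0.284) without the squamous libraries. Another such receptor, Npr1, rose in saline D48 against Control (0.55 ± 0.183, edgeR adjusted p = 0.0372). The edgeR adjusted p was between 0.0651 and 0.130 without any 1 of saline D48 replicates 1 to 3 or Control replicates 1 and 2. That call was also lost without a filter on low counts (edgeR adjusted p = 0.148) and in the fit of only the 2 groups (edgeR adjusted p = 0.0575). The value was 0.62 (edgeR adjusted p = 0.181) without the pancreatic libraries and 0.53 (edgeR adjusted p = 0.258) without the squamous ones. In APX3330 against saline D48 Npr1 fell (-0.67 ± 0.184, edgeR adjusted p = 0.0188) and so did the phosphodiesterase Pde9a (-0.65 ± 0.186, edgeR adjusted p = 0.0228). The Npr1 call was lost without APX3330 replicate 2 or 3 or saline D48 replicate 1 (edgeR adjusted p = 0.0631, 0.0705 and 0.0530). The Pde9a call was lost without APX3330 replicate 1 or saline D48 replicate 2 (edgeR adjusted p = 0.0807 and 0.0816). In the fit of only the 2 groups the Npr1 and Pde9a calls were both lost (edgeR adjusted p = 0.0612 and 0.0542). Npr1 was also lost without a filter on low counts (edgeR adjusted p = 0.0694). Without the pancreatic libraries the values in that comparison were -0.75 for Npr1 (edgeR adjusted p = 0.131) and -0.51 for Pde9a (edgeR adjusted p = 0.261). Gucy1a1, a subunit of soluble guanylyl cyclase, passed the test in none of the 7 comparisons and had log2 fold changes from -0.56 ± 0.194 to 0.01 ± 0.192. The photoreceptor and olfactory cyclase genes Gucy2d, Gucy2e, Gucy2f and Gucy2g did not pass the filter on low counts, so Gucy2c was the one membrane cyclase of the Gucy2 family tested.

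All 12 transcription factors were tested. Against Control, 5 fell at saline D27, 2 at saline D48, 2 at saline D100 and 0 in APX3330. Of all genes 9.36%, 13.0%, 10.5% and 8.18% fell in these comparisons, and 10.2%, 14.3%, 11.4% and 7.16% rose. In each of the 4 groups 4 rose against Control, Spdef, Gfi1, Atoh1 and Cdx2, of which Atoh1 (0.77 to 1.14, edgeR adjusted p of at most 0.0181), the master regulator of secretory cells, lies outside the rule for named genes. Spdef, which drives goblet cell maturation, averaged 100.3 ± 24.3 CPM in APX3330, 96.3 ± 9.59 in saline D27, 85.2 ± 15.6 at saline D48, 120 ± 15.6 at saline D100 and 26.9 ± 2.84 in Control. Its log2 fold changes against Control were between 1.66 ± 0.174 (saline D48) and 2.15 ± 0.175 (saline D100), with edgeR adjusted p of at most 2.55e-05 in all 4. Gfi1, a repressor that acts in secretory precursors, averaged 23.1 ± 3.55, 18.0 ± 4.74, 18.0 ± 4.20 and 29.4 ± 2.74 CPM in these groups and 6.46 ± 0.585 CPM in Control, and it rose in all 4 (1.48 to 2.18, edgeR adjusted p of at most 0.000369). Without the squamous libraries the Gfi1 value of saline D27 was 1.36 (edgeR adjusted p = 0.0549). By group mean Spdef, Gfi1 and the goblet marker sum given above were all lowest in Control and highest in saline D100. A relation between them over the libraries was not tested.

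Cdx2, the caudal-type homeobox factor that directs intestinal identity and is known from human cells to bind the GUCY2C promoter, stood at 112, 102 and 137 CPM in APX3330. It was at 87.5, 97.2 and 74.6 CPM in saline D27, at 105, 51.1 and 53.9 CPM in saline D48, at 107, 168 and 156 CPM in saline D100 and at 37.0, 26.2 and 25.4 CPM in Control. Every library of the other 4 groups lay above every Control library. In these comparisons 32.4% to 42.5% of all genes did not overlap with Control. Cdx2 rose against Control by log2 1.99 ± 0.255 in APX3330, 1.55 ± 0.252 in saline D27, 1.24 ± 0.252 in saline D48 and 2.28 ± 0.257 in saline D100. The edgeR adjusted p was at most 0.00211 in all 4. Posterior Hox sums were lower in these groups than in Control while anterior ones overlapped with it, and their part in the Cdx2 levels was not tested. In APX3330 against saline D48 Cdx2 rose by 0.74 ± 0.244 (edgeR adjusted p = 0.0427), against 0.16 without the pancreatic libraries. Leaving out any 1 library of these groups other than saline D48 replicate 1 gave an edgeR adjusted p between 0.0590 and 0.166. The call was also lost by the DESeq2 test (DESeq2 adjusted p = 0.0606) and in the fit of only the 2 groups (edgeR adjusted p = 0.0948).

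Hnf4g and Hnf4a, nuclear receptors of epithelial differentiation, passed the test in saline groups. Hnf4g fell in saline D27 (-0.98 ± 0.176, edgeR adjusted p = 0.00178) and saline D48 (-0.70 ± 0.174, edgeR adjusted p = 0.00749) against Control. The saline D48 value was -0.67 (edgeR adjusted p = 0.139) without the pancreatic libraries. Hnf4a, an abundant epithelial factor at 982 ± 226, 754 ± 63.3, 787 ± 93.0 and 829 ± 49.5 CPM in APX3330, saline D27, saline D48 and saline D100 and 1007 ± 22.5 CPM in Control, fell in saline D27 against Control (-0.42 ± 0.142, edgeR adjusted p = 0.0497). That call was lost without any 1 of these 6 libraries, with edgeR adjusted p between 0.0668 and 0.137, and without the squamous libraries (-0.40, edgeR adjusted p = 0.334).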

How the data were processed

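Total RNA of mouse colon was sequenced in 15 libraries, grouped by their titles. The table deposited by the authors holds raw counts of each gene in each library. A SMARTER kit was used for library preparation, per the labels' protocols. The builds GRCm38 and mm10 are named, per the submitters' processing notes. Aligner, counter and strand setting: not given in the sources used here.

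Columns of the table carry the library names of the labels. Of 56859 genes 18038 passed edgeR's filterByExpr. One fit over the 15 libraries was made with edgeR 4.0.16 in R 4.3.3 (TMM, glmQLFit, glmQLFTest), with Benjamini-Hochberg adjustment over all genes tested and calls below 0.05. Each SE was obtained by dividing the size of the log2 fold change by the root of F. Marker sums are in CPM, and ratios are between counts of the same library. The procedure was first tested on simulated data. Libraries of a group differed beyond counting noise (chi-square per degree of freedom 9.16 to 76.2 over 15 pairs), so no pair was treated as a duplicate deposit of 1 library.

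The members and lists were chosen with earlier results of these data known. Named pathway genes were the 5 of each list with the smallest p over the 5 groups and a mean of at least 2 CPM, plus Slc9a3, Cftr, Prkg2, Cdx2 and Hnf4a. Some genes that this rule names are not reported here. Coordinates and exon lengths are from GENCODE M21, matched by symbol (131 of 131). Promoter sequences are from RefSeq (GRCm38.p6) and were found for 2 of the 3 genes. They are shown up to the GENCODE start. Same-numbered replicates were checked for pairing: correlations of deviations from group means over 30 pairs ran from -0.140 to 0.255, and 2 were over 0.1, so the numbers were not used as a block. The alternatives tried were the DESeq2 1.42.0 test, its size factors, keeping genes with low counts, a replicate block, only the 2 groups compared, and each library left out. Fits without the libraries holding pancreatic or squamous transcripts, and scaling to epithelium markers, were added after seeing the data. Python 3.11.15 with matplotlib 3.10.9 drew the figures.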

Additional observations from a re-analysis of the deposited data

How the results depend on the processing

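Spread between replicates was taken as the larger SD of log2 CPM of the 2 groups compared. The 30 fold changes of the hormone and receptor genes moved by less under DESeq2 size factors, the DESeq2 test and no filter on low counts. So they did under the replicate block, fits of only the 2 groups compared and each library left out (180 fits). Leaving out 1 of 3 libraries can hardly shift a group mean by that much, so the rule decides little there. Guca2a in APX3330 against saline D48 still ran from -0.17 (without saline D48 replicate 2) to 0.24 (without saline D48 replicate 1). Relative to epithelium markers 4 of the 30 moved by more than this spread. They were Guca2b in saline D100 against Control (1.38), and Gucy2c in saline D100 (0.20) and APX3330 (0.36) against Control and in saline D100 against saline D27 (0.33). Without the libraries with pancreatic transcripts 2 of 12 did, Guca2b in saline D48 against Control (0.94) and in saline D100 against saline D48 (0.28). Counts of calls stayed within 1.5 times under DESeq2 size factors. Without the libraries with squamous transcripts, all genes called were 364 for APX3330 and 441, 1282 and 1001 for saline D27, D48 and D100 against Control, where all libraries gave 2766, 3522, 4916 and 3943, and 40 for APX3330 against saline D100, where all gave 91. Pathway genes called were 4, 5, 7 and 6 in the first 4. Without the libraries with pancreatic transcripts, 1607 genes (6 of the pathway) were called in saline D48 against Control and 934 (1) in APX3330 against saline D48, where all libraries gave 3557 (10). Fits of only the 2 groups called 955 genes for APX3330 against saline D27 (1638 with all groups) and 1985 (5 of the pathway) for APX3330 against saline D48. Without a filter on low counts 10 pathway genes were called in APX3330 against saline D27, and 2 pathway genes and 776 genes in all against saline D100. The DESeq2 test called 10 and 436 genes in those 2 comparisons, for the pathway and for all genes. Whether replicate numbers pair the samples is not settled by the correlations (-0.140 to 0.255). With the replicate block 49 genes were called in APX3330 against saline D100. Every pathway count stayed within 1.5 times with it, and 5 of 46 calls of named genes were lost. With 1 library left out, all genes called ran from 1827 to 3363, 3535 to 4376 and 2638 to 3521 for saline D27, D48 and D100 against Control, from 1524 to 2492 for APX3330 against Control, and from 428 to 1985, 2209 to 3253 and 12 to 91 for APX3330 against saline D27, D48 and D100. Pathway genes called ran from 7 to 12, 11 to 16, 10 to 14, 10 to 13, 2 to 8, 7 to 11 and 0 to 1 in the same order. Of 276 such refits of named calls 53 lost the call. The causes were not tested. Of the hormone and receptor genes, Guca2b, with 58 to 165 counts per library, is most limited by depth.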
